A study of Mus musculus with 11 samples.

Results

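The genes described here encode the machinery that presents peptides on major histocompatibility complex (MHC) class I and class II molecules. The 10 members, of 36413 gene names on the array, were H2-Aa, H2-Ab1, H2-Eb1, H2-DMa, Cd74 and Ciita for class II and H2-K1, H2-D1, B2m and Tap1 for class I. They were found by gene name in the array files, which held 12 probes for them among 55681 probes other than control probes. To be detected, a probe needed spots that were found and well above background on 5 or more arrays from the same group. By that rule 23633 probes were detected on the arrays as a whole, and 11 of the 12 member probes, from 9 of the 10 genes, were among them. The exception was Ciita.

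RNA was measured in the aorta of male C57BL/6 mice aged 20 months, in 5 mice that drank 1 g/L NaNO3 for 8 weeks and in 6 controls of the same age, strain and sex. The study's methods give the controls an equal amount of sodium chloride. The labels name no sodium chloride for them and call their arrays a reanalysis of earlier samples, so it was not shown that both groups were kept together. A further nitrate treated sample was not used here. Every mouse has 1 one-color Agilent array, where RNA labeled with Cy3 binds to spots of DNA probes of 60 bases.

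MHC class II molecules hold an alpha and a beta chain and present peptides from the endosomes of dendritic cells, macrophages and B cells to CD4+ T cells. Cd74 is the invariant chain that occupies the groove until H2-DM exchanges its remnant for a peptide, and Ciita is the transactivator that switches the class II genes on, including after interferon gamma. MHC class I molecules hold a heavy chain, such as H2-K or H2-D, and beta-2-microglobulin (B2m). They present peptides from the cytosol, carried into the endoplasmic reticulum by the transporter of which Tap1 is a subunit, on nearly all nucleated cells, vascular cells included. In an artery the cells that carry class II are mostly leukocytes of the wall and its adventitia.

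In these aortas 1 of the 10 members was differentially expressed, H2-D1, whose signal was lower in nitrate treated mice. Differential expression was taken at P under 0.05 in limma's moderated test, without adjustment, together with a fold change above 1.2. Over all detected probes 2128 of 23633 (9.00%) met that rule, so the members' count was near the share of the arrays as a whole. Of the detected probes, 4.85% were differentially expressed and lower, which is the share to set beside H2-D1. No member was differentially expressed and higher, against 4.16% of the detected probes. Of the 9 detected members 1, again H2-D1, had an unadjusted P under 0.05 whatever its fold change, against 14.4% of the detected probes. After adjustment no member stayed under 0.05, against 0.0127% of the detected probes, and in no member were the groups free of overlap, against 2.75%. The difference of each of the 9 detected members was below 0, with a median of -0.16 on the log2 scale. Of all detected probes 46.2% were lower in nitrate treated mice, and their median difference was 0.01. H2-Eb1 and B2m changed direction with 1 mouse left out, reaching 0.0441 and 0.0268. The class II signals rose and fell together from mouse to mouse, while only some of the other pairs did, as given below. The 9 members share mice, arrays and normalization, so they are not 9 separate observations.

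Probe and promoter sequences are shown where they bear on how the signals may be read. All member probes were compared with every other probe of the array, and a shared run of at least 16 identical bases was counted. The probes of H2-Aa, H2-Eb1, H2-DMa, Cd74, H2-D1, B2m and Tap1, and the brighter of the H2-K1 probes, shared no such run with any other probe of the array. Transcripts were not compared, so cross-hybridization to other class I transcripts was not tested. The probe of H2-D1, which carried the only called difference, lies at 35403886 to 35403945 on the plus strand of chromosome 17 (mm9), and its bases 16 to 45 are shown first below. The second H2-K1 probe, at 34133984 to 34134043 on the minus strand of chromosome 17, is shown whole, with the run of 29 bases that it shares with the probe of H2-T23, another class I gene, in capitals. It shared shorter runs of 19 to 22 bases with 3 other probes.

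H2-D1 probe, bases 16 to 45: aacattgtctgatgttccctgtgagcttgg

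H2-K1 second probe: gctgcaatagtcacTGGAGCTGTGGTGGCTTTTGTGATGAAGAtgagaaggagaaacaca

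The H2-Ab1 probes overlap by 51 bases and differ there at 1 base, T51C, where positions count from the 5′ end of the first probe. The stretches around that base are shown next to each other because both probes stand for the same gene, with the base that differs in capitals.

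H2-Ab1 first probe, bases 31 to 60: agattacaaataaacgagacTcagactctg

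H2-Ab1 second probe, bases 22 to 51: agattacaaataaacgagacCcagactctg

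RefSeq promoter windows (GRCm38.p6) were at hand for 7 of the 10 members, H2-Aa, H2-Eb1, H2-DMa, H2-K1, H2-D1, B2m and Tap1. Class II promoters are known for an X box bound by RFX factors and a Y box bound by NF-Y, on which Ciita docks, and class I promoters for an NF-kappaB site next to an interferon-stimulated response element. The letters searched in the 250 bases before each start, on both strands, were GCAACT for an X box core and GATTGG for a Y box core, GATTCCC and TTTCACT for the cores of the class I elements, and GAAANNGAAA for an interferon response element. A match is only a run of letters in this window. H2-Aa and H2-Eb1 are shown, with GCAACT and GATTGG in capitals (CCAATC is GATTGG on the other strand), because both class II members held the cores in this order. In them the cores lie 26 and 25 bases apart. The windows of H2-DMa, the other class II member at hand, lacked the X box core and held the Y box core only at 199 bases before 1 of the starts. Of class I, the window of Tap1 held the X box core, and those of Tap1, H2-D1, B2m and 1 start of H2-K1 held the Y box core, in B2m on the forward strand and in the others on the reverse strand. GCAACT alone was in 8.97% and GATTGG alone in 14.6% of 32536 windows of the same length, and GCAACT followed after 15 to 30 bases by GATTGG in 0.0584%. That arrangement came from H2-Aa, H2-Eb1 and H2-Eb2 and from many genes that are not class II chains, among them Gstz1, Hes6, Nasp and Ube2c.

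H2-Aa promoter, chr17:34287824-34287933, minus strand: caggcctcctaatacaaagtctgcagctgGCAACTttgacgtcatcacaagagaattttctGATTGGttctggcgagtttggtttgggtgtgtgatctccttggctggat

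H2-Eb1 promoter, chr17:34305757-34305866, plus strand: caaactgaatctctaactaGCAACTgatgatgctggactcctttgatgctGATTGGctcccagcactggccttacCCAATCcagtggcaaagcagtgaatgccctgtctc

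The H2-K1 and H2-D1 promoters are shown because these paralogs encode the classical heavy chains and both held GATTCCC followed within 20 bases by TTTCACT, here in capitals. GATTCCC alone was in 2.82% and TTTCACT alone in 3.71% of the windows. The arrangement was in 0.0246%, from the class I genes H2-K1, H2-D1, H2-M3, H2-Q6 and H2-Q7 and from A730094K22Rik. The B2m promoter held neither of these runs. It held GAAANNGAAA, which was in 2.98% of the windows, and GATTGG.

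H2-K1 promoter, chr17:34000348-34000537, minus strand: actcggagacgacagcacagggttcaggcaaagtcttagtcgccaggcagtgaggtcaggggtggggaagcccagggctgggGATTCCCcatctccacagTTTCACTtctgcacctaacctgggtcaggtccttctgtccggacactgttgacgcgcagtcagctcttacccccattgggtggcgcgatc

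H2-D1 promoter, chr17:35262904-35263093, plus strand: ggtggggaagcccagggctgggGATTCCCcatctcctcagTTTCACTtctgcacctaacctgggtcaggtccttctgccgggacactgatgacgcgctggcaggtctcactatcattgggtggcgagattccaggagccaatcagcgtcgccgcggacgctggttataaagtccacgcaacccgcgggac

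B2m promoter, chr2:122147497-122147686, plus strand: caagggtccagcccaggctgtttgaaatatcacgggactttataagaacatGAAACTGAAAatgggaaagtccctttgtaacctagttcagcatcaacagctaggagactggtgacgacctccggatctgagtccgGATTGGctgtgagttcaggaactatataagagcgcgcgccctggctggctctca

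The 75th percentile of the processed signal lay between 216 and 289 on nitrate arrays and between 213 and 282 on control arrays, and no spot was saturated. At most 186 spots were flagged as outliers on a nitrate array and 173 on a control array. Control 5 had the most detected probes, 28672 against at most 26911 on the other arrays, and H2-D1 stayed differentially expressed without it. The arrays came from 3 slides, each with mice of both groups. Column 3 of the slides held every control array and no nitrate array, so slide column and treatment cannot be told apart. The tissue label was borne out by the markers of the vessel wall, with 6 of 6 smooth muscle and 6 of 6 endothelial markers detected. Signals of cardiac muscle genes were high in nitrate 4 and control 1, with mean deviations of 3.92 and 3.32 from the mean over all mice. In whole aorta, fewer cells of a type and less RNA per cell cannot be told apart. Precision is limited by how few arrays there are, and levels are given as quantile normalized log2 signals of a probe, which are not compared between probes.

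H2-D1, a classical class I heavy chain, had log2 signals of 13.10, 13.53, 13.30, 13.12 and 13.07 in nitrate treated mice 1 to 5. In controls the lowest was 13.22, the median 13.51 and the highest 13.67. Nitrate 1, nitrate 4 and nitrate 5 lay below all controls, while nitrate 2 and nitrate 3 lay within their range. The mean was 13.22 ± 0.19 (SD, n = 5) with nitrate and 13.51 ± 0.17 (SD, n = 6) without, a difference of -0.28 ± 0.11 (SE) that corresponds to a 1.22-fold lower signal. Limma's moderated test gave P = 0.0200 and an adjusted P value of 0.283, and the exact permutation test over the 462 divisions of the mice, two-sided, gave P = 0.0346. The difference was -0.31 within slide 1, -0.04 within slide 2 and -0.47 within slide 3. H2-D1 lay close to the limits of the rule, and with nitrate 1, 4 or 5 or control 1 or 3 left out, it was no longer differentially expressed, at differences between -0.26 and -0.25.

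H2-K1, the other classical heavy chain of this strain, was read by a bright probe present as 10 spots per array. Its log2 signals were 13.67, 14.39, 14.09, 14.18 and 13.75 in nitrate treated mice 1 to 5, and 13.90, 14.18 and 14.58 were the lowest, median and highest of the controls. The groups overlapped widely. The difference was -0.18 ± 0.15 (SE), with P = 0.240 in limma's test and 0.284 in the exact permutation test and a 95% confidence interval from -0.50 to 0.14. Its second probe, the one that shares a run with H2-T23, gave -0.26 ± 0.13 (SE), with P = 0.0581 in limma's test and 0.0909 in the exact permutation test, and nitrate 5 was the lowest mouse there. This second probe met the rule in 5 of 22 alternatives, with slide or replicate number as a block and without nitrate 2, nitrate 3 or control 6. The SD between the 10 spots of an array had a median of 0.057 for H2-K1, against 0.30 between the arrays of nitrate treated mice and 0.22 between those of controls. With 1 array per mouse, differences between mice and those of labeling or hybridization cannot be told apart.

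B2m, the light chain that all class I heavy chains share, had the smallest difference of the detected members, -0.05 ± 0.11 (SE), with a 95% confidence interval from -0.29 to 0.19 and P = 0.686 in limma's test and 0.701 in the exact permutation test. Its log2 signals were 13.86, 14.48, 14.28, 14.12 and 14.02 in nitrate treated mice 1 to 5 and lay between 14.06 and 14.45 in controls. Nitrate treated mice thus held both the lowest and the highest value.

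Tap1, a subunit of the peptide transporter, had log2 signals of 5.98, 6.64, 6.29, 5.59 and 6.12 in nitrate treated mice 1 to 5 and of 5.89 to 7.02 in controls, with control 1 highest. Its SD was 0.39 in nitrate treated mice and 0.44 in controls, the widest of the detected members in controls. Its 10 spots per array differed less, with a median SD between spots of 0.14. The difference was -0.23 ± 0.23 (SE), with P = 0.333 in limma's test and 0.392 in the exact permutation test.

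**Figure D1:**
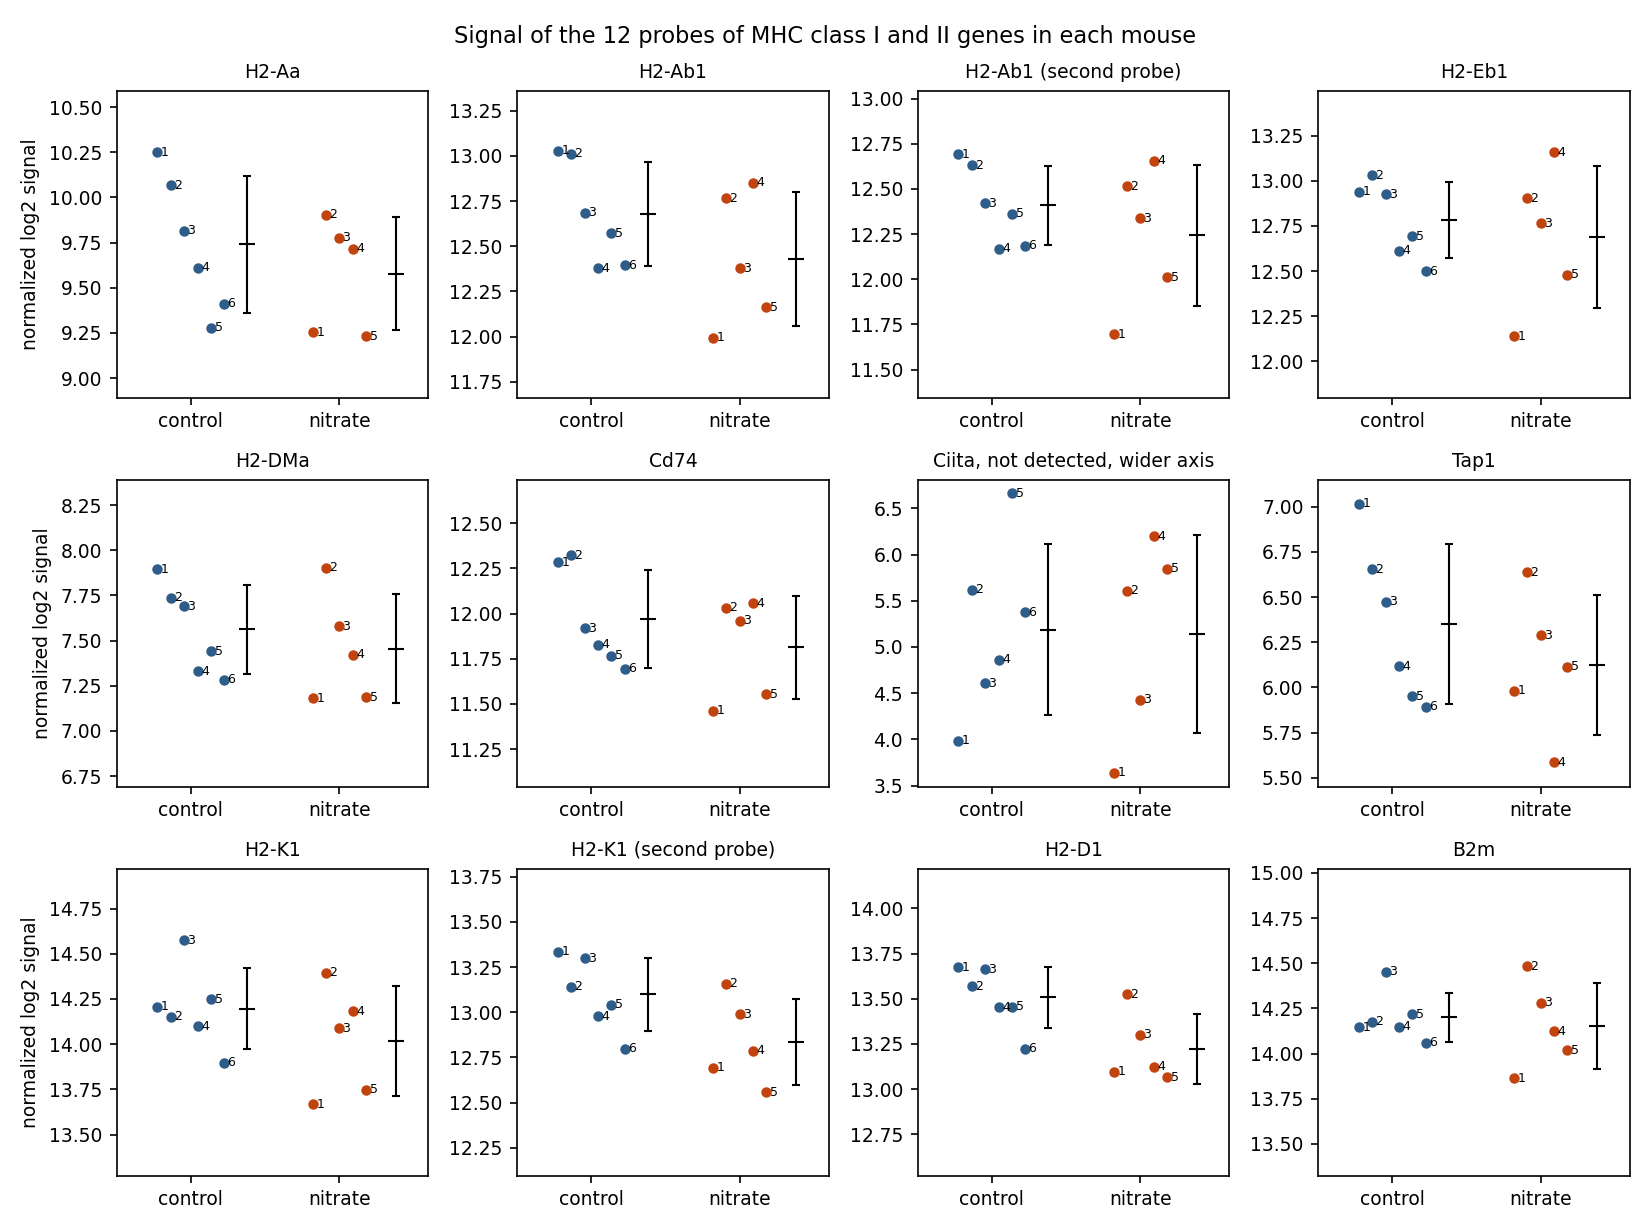
Quantile normalized log2 signal of each of the 12 member probes in the 6 control (blue) and 5 nitrate treated (orange) mice. Numbers are the mouse numbers, points are spread sideways for legibility, and the bars give the mean and SD of a group. All panels but that of Ciita span the same log2 range, so the spread may be compared between panels, and in every panel the groups overlap.

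Among the class II chains, H2-Ab1, the beta chain of the I-A molecule, had the largest difference, -0.25 ± 0.18 (SE) at its brighter probe, with P = 0.192 in limma's test and 0.232 in the exact permutation test. That probe gave log2 signals of 11.99, 12.76, 12.38, 12.85 and 12.16 in nitrate treated mice 1 to 5, and 12.38, 12.63 and 13.03 as the lowest, median and highest of the controls. Nitrate 1 and nitrate 5 lay below all controls and the other nitrate treated mice lay among them. The overlapping second probe gave -0.17 ± 0.17 (SE). The partner chain H2-Aa had a difference of -0.16 ± 0.19 (SE), with nitrate treated mice between 9.23 and 9.90 and controls between 9.28 and 10.25. H2-Eb1, the beta chain of I-E, had a difference of -0.09 ± 0.17 (SE), with nitrate treated mice between 12.14 and 13.16 and controls around a median of 12.81 with 13.03 as the highest. H2-Ea-ps, the I-E alpha chain that C57BL/6 mice are known not to express, was detected on 0 of 11 arrays.

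Cd74, the invariant chain, had log2 signals of 11.46, 12.03, 11.96, 12.06 and 11.55 in nitrate treated mice 1 to 5. The controls lay between 11.70 and 12.32, with a median of 11.87. Again nitrate 1 and nitrate 5 lay below every control, and the remaining nitrate treated mice lay above the control median. The difference was -0.16 ± 0.15 (SE), with a 95% confidence interval from -0.49 to 0.18 and P = 0.328 in limma's test and 0.366 in the exact permutation test. H2-DMa, a chain of the peptide editor H2-DM, had a difference of -0.11 ± 0.15 (SE), with nitrate treated mice between 7.18 and 7.90 and controls between 7.28 and 7.89. Its probe spans 564 bases of the genome.

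Ciita, the transactivator of the class II genes, was not measured well. The spot passed both criteria on 3 of the 5 nitrate arrays and 4 of the 6 control arrays. The log2 signals ran from 3.64 to 6.66, and the difference was -0.04 ± 0.56 (SE). Its probe shared runs of 16 to 26 bases with 11 other probes. The level of Ciita is therefore not interpreted.

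**Figure D2:**
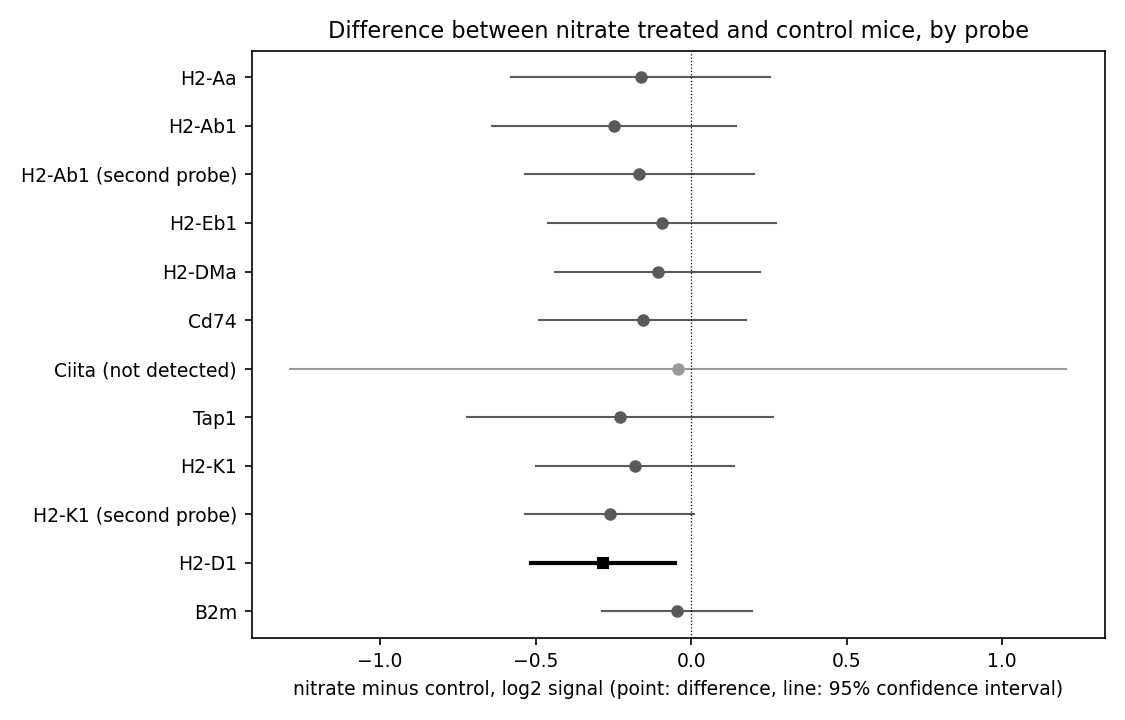
Difference between nitrate treated (n = 5) and control mice (n = 6) in log2 signal for the 12 member probes, with 95% confidence intervals from limma. The square marks H2-D1, the member that was differentially expressed, and grey marks Ciita, which was not detected. All points lie below 0, and the interval of H2-D1 alone leaves out 0.

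In each detected member but H2-D1 the SD of either group was above the size of the difference between groups, and the class II members varied together. The mean deviation of the 5 detected class II members from their means over all mice was -0.47 in nitrate 1 and -0.35 in nitrate 5. It was 0.22 in nitrate 2, 0.16 in nitrate 4 and 0.02 in nitrate 3. Among controls it was 0.40 in control 1, 0.36 in control 2 and 0.13 in control 3, and between -0.22 and -0.12 in the other 3. Nitrate 1 and nitrate 5 were thus lowest and control 1 and control 2 highest, with nitrate 1 the lowest of all 11 mice in 4 of these 5 genes.

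Correlations across the 11 mice were computed for the 36 pairs of detected members, with permutation tests of 100000 resamples and Benjamini-Hochberg adjustment over the pairs. Within class II, Pearson's r lay between 0.73 and 0.94 in the 10 pairs, with a median of 0.86, and Spearman's rho between 0.75 and 0.94. The adjusted permutation P value was at most 0.0196 for r and 0.0201 for rho. H2-Aa and Cd74 had the highest r of these, 0.94 (rho 0.91). With the 2 mice farthest from the median of the first gene left out, r within class II lay between 0.71 and 0.93. In the 7 mice of the first scan day it lay between 0.88 and 0.98, and the second scan day held too few mice, 4. All pairs share the mice, the arrays and the normalization.

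Within class I the pairs were less even. H2-K1 and B2m, a heavy chain and its light chain, had an r of 0.90 (rho 0.78, adjusted permutation P = 0.00210 for r and 0.0145 for rho), while Tap1 had an r of 0.42 with H2-K1 and 0.45 with B2m. The adjusted P value of r was under 0.05 in 4 of the 6 pairs. Between the classes, r lay between 0.34 and 0.83 and its adjusted P value was under 0.05 in 10 of the 20 pairs. The lowest, between H2-Eb1 and Tap1, rose to 0.84 when the 2 mice farthest from the median of H2-Eb1 were left out. Other pairs fell when 2 mice were left out in this way, such as H2-Ab1 and Tap1, from 0.52 to 0.30. With 2 mice left out, r lay between 0.30 and 0.86 between the classes and between 0.27 and 0.85 within class I. H2-D1 had an r of 0.83 with H2-DMa and 0.68 with B2m, which became 0.80 and 0.47 with 2 mice left out.

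**Figure D3:**
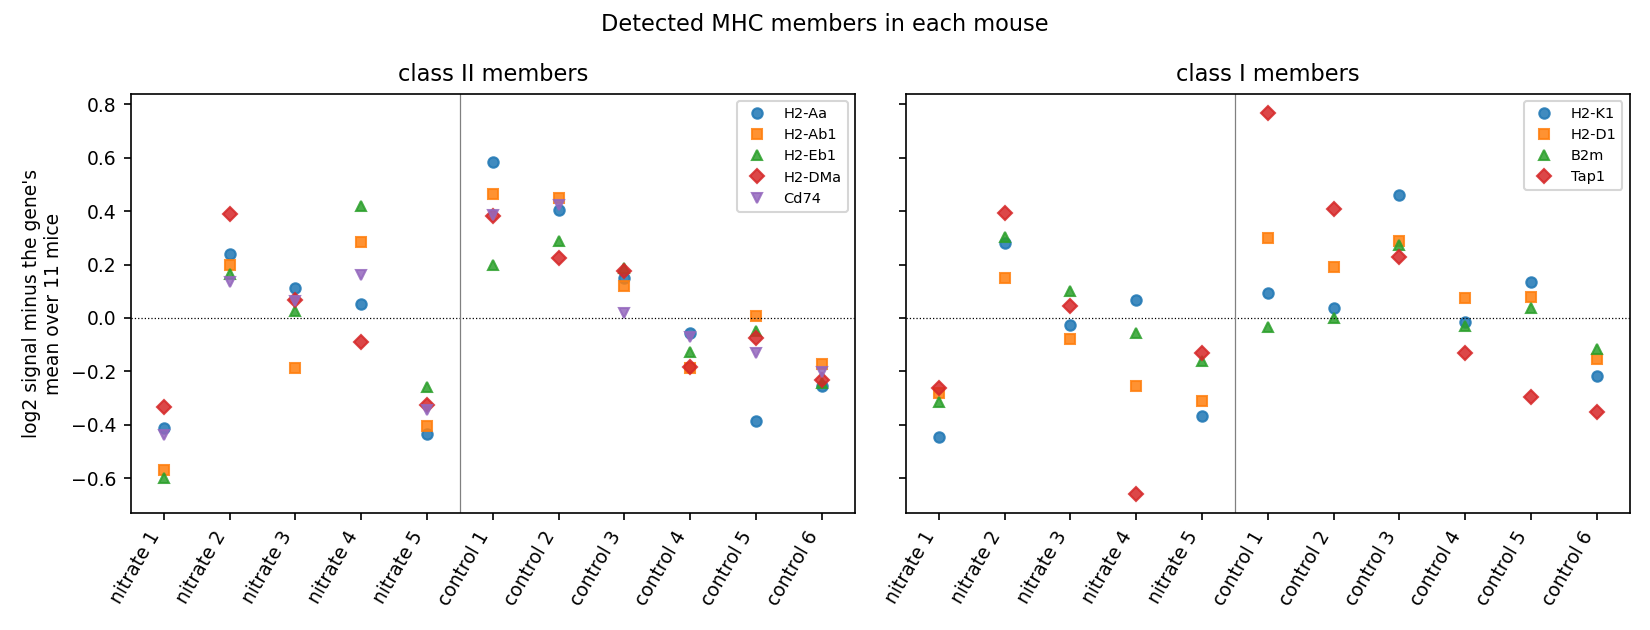
Log2 signal of each detected member in each mouse, given as the deviation from that gene's mean over the 11 mice, for 5 class II members (left) and 4 class I members (right), with nitrate treated mice left of the vertical line in each panel. The class II members are low in nitrate 1 and nitrate 5 and high in control 1 and control 2, and spread furthest apart in nitrate 4, while Tap1 departs from the other class I members in nitrate 4 and control 1.

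Genes with like signals over the 11 mice were sought among 12198 detected genes with a symbol, with the members left out. Most like Cd74 were Nlrp1a (r = 0.92), the pseudogene Slfn10-ps (0.91), Irf8 (0.89), H2-Q8 (0.87) and Xdh (0.87). Irf8 is a transcription factor of dendritic cells, macrophages and B cells. Most like B2m, again outside the members, were Cfb, complement factor B (r = 0.96), Mlkl (0.92), Nek6 (0.91), Fgd3 (0.89) and Il10ra, a chain of the interleukin 10 receptor (0.89). They were picked for the size of r and have no test, and none of these 10 genes was differentially expressed.

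The other genes of the pathway were taken from lists. Of the other class I chains, 21 genes were on the array and 16 detected, of which 3 were differentially expressed (lower), against 4.85% of all detected probes, and 0 higher, with a median difference of -0.26 over the 16. The 3 were H2-Q10, H2-T9 and H2-T10, and 13 of the 16 had a difference below 0, against 46.2% of all detected probes. H2-M9 (-0.44), Hfe (-0.05) and Mr1 (0.01) were detected through the control arrays alone and are among the 16, so the count and the median are a description. H2-Q10, a class I chain known to be secreted, mainly by the liver, had log2 signals of 9.42, 9.42, 10.005, 9.52 and 9.98 in nitrate treated mice 1 to 5 and of 9.87 to 11.40 in controls. Its difference was -0.91 ± 0.27 (SE), with P = 0.00590 and an adjusted P value of 0.209 in limma's test and an exact permutation P of 0.0216. The difference of H2-Q10 was -0.14 within slide 2, against -1.08 and -1.35 within slides 1 and 3. A dimmer H2-Q10 probe, found on 3 nitrate and 4 control arrays, gave -0.44.

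H2-T9 and H2-T10, nonclassical chains, had differences of -0.29 ± 0.10 (SE) and -0.31 ± 0.14 (SE). For H2-T9 limma's test gave P = 0.0123 and the exact permutation test 0.0173, and for H2-T10 they gave 0.0463 and 0.0779 (exact). H2-T10 no longer met the rule in 10 of 22 alternatives, among them 7 in which 1 mouse was left out, and its difference was 0.0958 within slide 2. H2-T9 no longer met it without nitrate 5 or control 1. Control 1 held the highest value of both. Without control 1, 1 of the 16 chains was differentially expressed. Without nitrate 2 or control 6 there were 7, and without nitrate 3 or control 5 there were 5. H2-Q2, H2-Q5, H2-Q6 and H2-Q7, chains of the Q region, had differences from -0.27 to -0.24 that did not pass, with P values in limma's test from 0.0522 to 0.0618. Each is the brightest probe of its gene, and dimmer probes of H2-Q2 and Cd1d1 met the rule. The Cd1d1 probe gave -0.41 ± 0.18 (SE), and the brightest probe of that gene -0.36 ± 0.21 (SE). The H2-Q2 probe gave -0.32 ± 0.14 (SE), with P = 0.0434 in limma's test and 0.0671 in the exact permutation test. H2-M2 was higher in every nitrate treated mouse than in any control, by 0.85 ± 0.18 (SE), but at a level well above background on 4 nitrate and 1 control arrays, so it was not detected by the rule.

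Of the genes that load peptides onto class I, 0 of 11 detected were differentially expressed in limma's test, against 9.00% of all detected probes. None had P under 0.05 in that test, against 14.4%, and the median difference was -0.08. For Psme1, at -0.11 ± 0.06 (SE), limma's test gave P = 0.0806 and the exact permutation test 0.0108. Psmb8 and Psmb9, subunits of the immunoproteasome, had differences of -0.20 ± 0.13 (SE) and -0.26 ± 0.16 (SE), and Tap2, the partner of Tap1, -0.09 ± 0.07 (SE). Psmb9 was found on 2 of the 5 nitrate arrays. Tapbp, tapasin, was not detected by the rule because its spot was found on 4 nitrate and 3 control arrays. Its difference was -0.16 ± 0.06 (SE), with P = 0.0215 in limma's test over all probes and 0.00866 in the exact permutation test.

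Of the genes that supply peptides for class II, 0 of 8 detected met the rule (9.00% of all detected probes), and 1 had P under 0.05 (14.4% of all detected probes). Lgmn, the asparaginyl endopeptidase legumain that cuts the invariant chain, was higher in every nitrate treated mouse (12.67 to 12.92) than in any control (12.41 to 12.63), but by 0.22 ± 0.07 (SE), under the limit on the fold change. Groups free of overlap were found in 2.75% of all detected probes. Its P value was 0.00681 in limma's test and 0.00216 in the exact permutation test, the smallest that test can give. The cathepsin Ctss had a difference of 0.22 ± 0.16 (SE). H2-DMb1, the partner of H2-DMa, was the 1 detected gene of 6 further class II chains, with a difference of 0.06 ± 0.11 (SE).

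Of 15 detected genes of MHC transcription and interferon gamma signaling, 0 met the rule and 4 had P under 0.05 in limma's test, against 14.4% of all detected probes. In 3 of these 15 the groups did not overlap, against 2.75% of all detected probes. Nfyb, a subunit of the Y box factor NF-Y, had a difference of 0.23 ± 0.07 (SE) at its brightest probe, while its other detected probes overlapped between the groups, at 0.04 ± 0.07 (SE) and 0.10 ± 0.13 (SE). Jak2, a kinase of the interferon gamma receptor, was higher by 0.24 ± 0.07 (SE), and Jak1, its partner kinase, was lower, at -0.16 ± 0.06 (SE). Nlrc5, the class I transactivator, had a difference of -0.09 ± 0.22 (SE), and Ifng itself was not detected.

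Among 11 detected interferon gamma target genes, 1 was differentially expressed, near the 9.00% of all detected probes, and the median difference was 0.03. Cxcl9, a chemokine induced by interferon gamma, had log2 signals of 5.93, 6.00, 6.38, 5.67 and 5.95 in nitrate treated mice 1 to 5 and of 6.34 to 7.19 in controls. Nitrate 3 alone overlapped with the controls. The difference was -0.67 ± 0.16 (SE), with P = 0.00126 and an adjusted P value of 0.144 in limma's test and an exact permutation P of 0.00649. It was -1.05 within slide 1 and -0.77 within slide 3, and 0.00 within slide 2. With normexp background correction it was -0.38 and still met the rule. The guanylate binding proteins Gbp2 to Gbp6 had differences from -0.07 to 0.22.

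**Figure D4:**
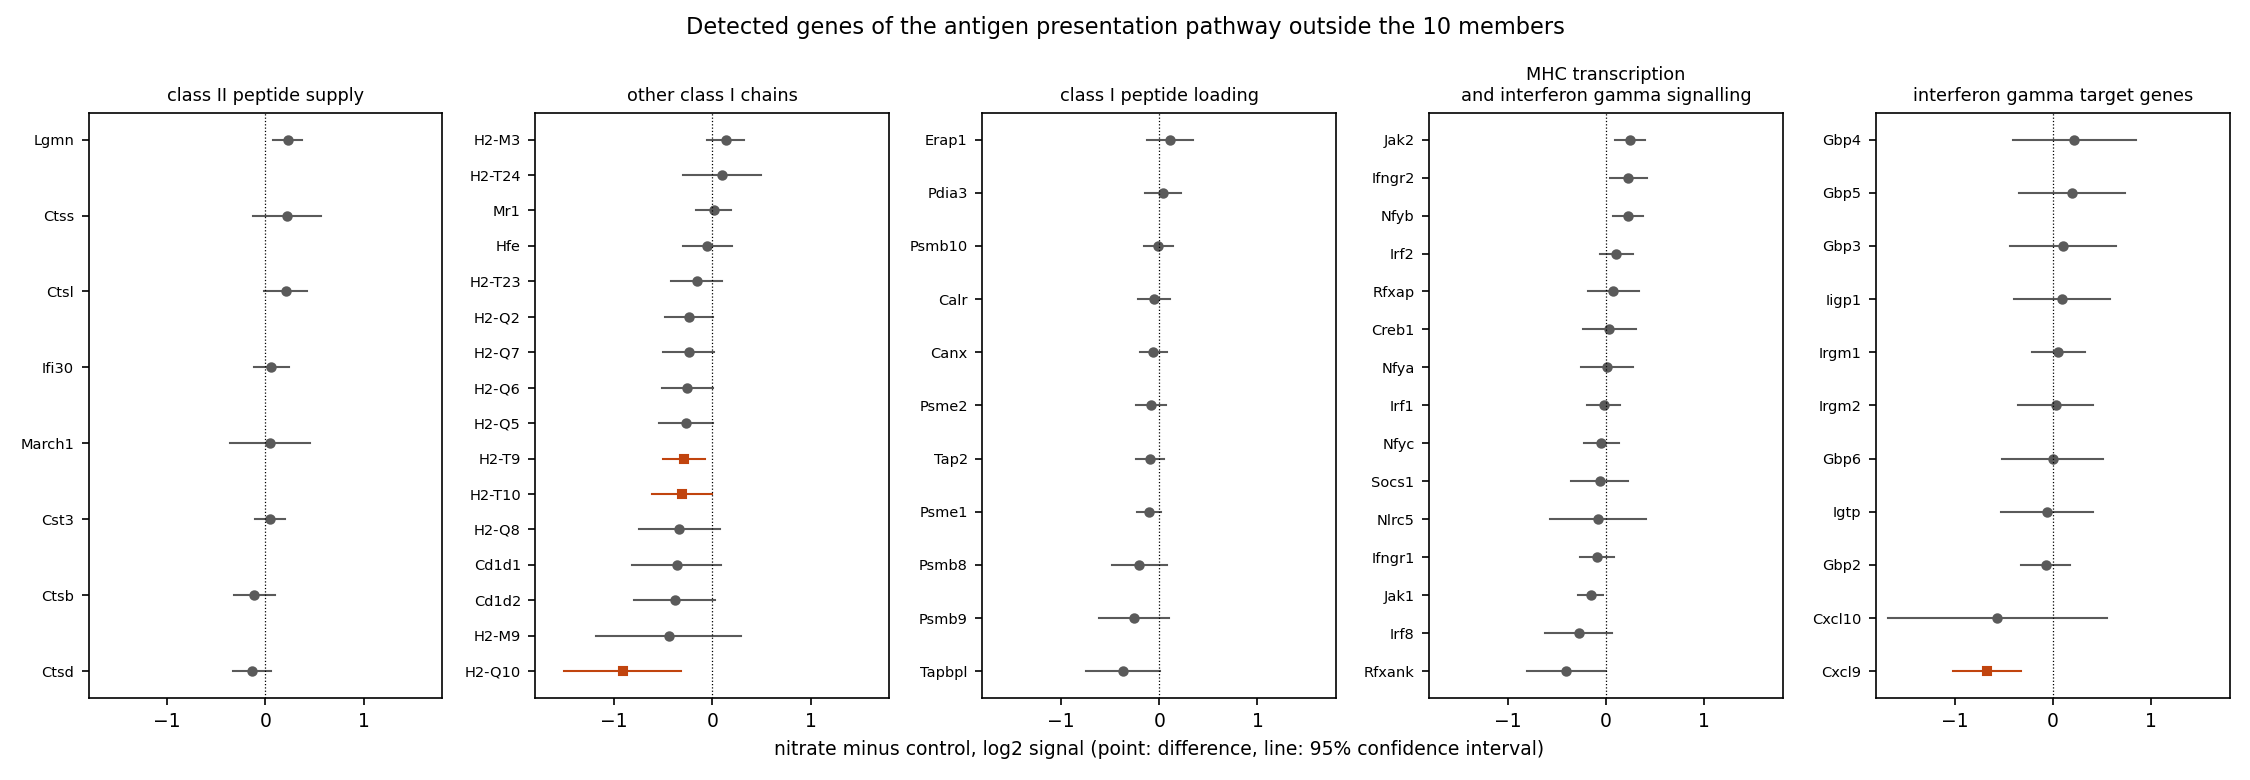
Difference in log2 signal between nitrate treated (n = 5) and control mice (n = 6), with 95% confidence intervals from limma, for the detected genes of 5 lists. Orange squares mark genes that were differentially expressed, which are H2-T9, H2-T10 and H2-Q10 among the class I chains and Cxcl9 among the interferon gamma targets, all lower in nitrate treated mice.

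Markers of the cells that carry class II were read beside these values. Of the macrophage markers 0 of 12 and of the dendritic cell markers 0 of 4 detected (10 listed) were differentially expressed. With 9.00% of all detected probes called, a count of 0 in lists this short is near the background, here and for the pan-leukocyte and T cell markers. The summed log2 signals lay between 13.09 and 13.85 with nitrate and between 13.47 and 13.66 in controls for macrophages, and between 9.27 and 10.29 and between 9.55 and 9.96 for dendritic cells. The dendritic cell markers Xcr1 and Clec9a were detected on 0 arrays and Zbtb46 on 11. Of the 12 macrophage markers 2 had a difference below 0, against 46.2% of all detected probes, and 10 above, with a median of 0.06. The mean of the macrophage markers was lowest in nitrate 1, at -0.33, the mouse with the lowest class II signals, and highest in nitrate 2, at 0.36. It was 0.34 in nitrate 3 and -0.07 in control 2, where class II deviated by 0.02 and 0.36. The mean of the dendritic cell markers was lowest in control 6, at -0.31. The pan-leukocyte markers, with 0 of 6 differentially expressed, were lowest in nitrate 5, at -0.33, and next lowest in control 5, at -0.30.

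Of 5 detected B cell markers (10 listed), 2 were differentially expressed and lower, against 4.85% of all detected probes. They were Cd79b, a chain of the B cell receptor complex, at -0.81 ± 0.25 (SE), and Bank1, an adaptor of that receptor, at -0.28 ± 0.12 (SE). The rest of the 5 were Cr2 at -0.15 ± 0.16 (SE), Cd22 at -0.02 ± 0.13 (SE) and Fcer2a at 0.04 ± 0.17 (SE). For Cd79b limma's test gave P = 0.00772 and the exact permutation test 0.0195, and for Bank1 they gave 0.0426 and 0.0649 (exact). The difference of Cd79b was -1.70, -0.0945 and -0.57 within slides 1, 2 and 3. With normexp background correction Cd79b was -0.48 and still met the rule, while Bank1 was -0.13 and did not. The summed log2 signals of the 5 B cell markers lay between 8.52 and 8.72 with nitrate and between 8.70 and 9.18 in controls. Pax5, a transcription factor of B cells, was detected on 0 arrays. Without any 1 of 9 mice Bank1 no longer met the rule. Of 6 detected T cell markers 0 were differentially expressed.

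Adipocyte and smooth muscle markers are given beside the class I chains. All 6 adipocyte markers had a difference below 0, against 46.2% of all detected probes, and 3 were differentially expressed, against 9.00%. These were Adipoq (-0.49 ± 0.11, SE), Retn (-0.84 ± 0.25, SE) and Lipe (-0.51 ± 0.20, SE), the last not without nitrate 1 or nitrate 4. The summed log2 signals of the 6 lay between 15.31 and 15.89 with nitrate and between 15.84 and 16.51 in controls. Nitrate 1 had the lowest mean of both the adipocyte markers (-0.56) and the other class I chains (-0.30), and control 1 the highest of both (0.70 and 0.44). Control 3 was second in both (0.56 and 0.29). The smooth muscle markers had the opposite order at these ends, with control 1 lowest (-0.43) and nitrate 1 highest (0.22). All 6 of them had a difference above 0, with a median difference of 0.18, and 1 was differentially expressed (9.00% of all detected probes), Lmod1, an actin-binding protein of smooth muscle, at 0.31 ± 0.11 (SE). Lmod1 no longer met the rule without nitrate 1, nitrate 2 or control 1. Smtn, smoothelin, did not overlap between the groups at its brighter probe, at 0.26 ± 0.12 (SE), but did at its other probe, at 0.14 ± 0.13 (SE). Without control 1 the first was 0.15. The summed log2 signals of the 6 smooth muscle markers lay between 19.36 and 19.43 with nitrate and between 19.03 and 19.42 in controls. The part of adipocytes, smooth muscle cells, B cells and other leukocytes in the differences of H2-D1, H2-Q10, H2-T9, H2-T10 and Cxcl9 was not tested.

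**Figure D5:**
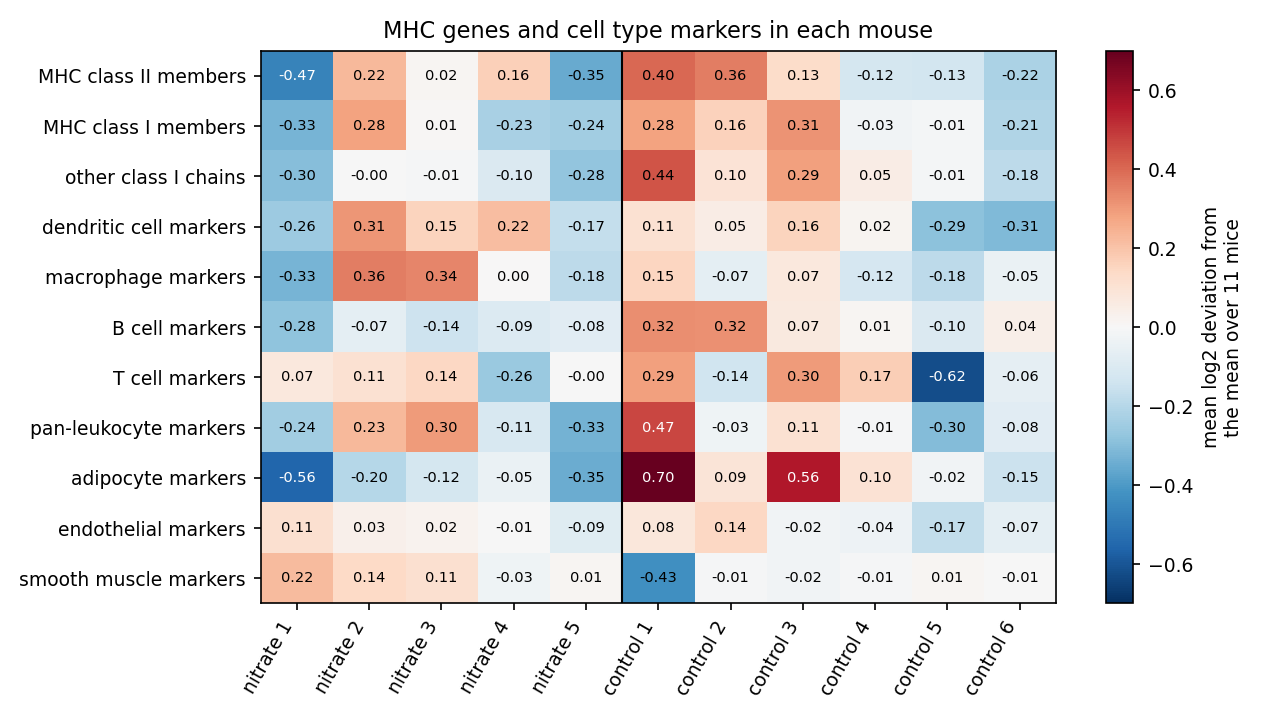
Mean deviation in log2 signal from the mean over the 11 mice, by mouse, for the 5 detected class II members, the 4 class I members, the 16 other class I chains and the detected markers of 8 cell classes, with nitrate treated mice left of the black line. MHC class II is lowest in nitrate 1 and nitrate 5. The other class I chains and the adipocyte markers are lowest in nitrate 1 and highest in control 1. The class I members are lowest in nitrate 1 and highest in control 3.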

How the data were processed

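For each of the 11 arrays (5 nitrate, 6 control) the authors deposited the scanner output of Feature Extraction 10.7.1.1, with spot intensities from which background had been subtracted and a set of quality flags. Nothing had been done to make arrays comparable. The authors also deposited a table of log2 values, quantile normalized and centred on the median of all samples. Here processed signals under 1 were set to 1 before log2 was taken. Control spots were dropped, as were spots flagged as outliers, replicate spots were averaged by probe and the 11 arrays were quantile normalized. Groups were compared with lmFit and eBayes of limma 3.58.1 in R 4.3.3, fitted over all 23633 detected probes, with Benjamini-Hochberg adjustment. Probes that were not detected were taken from a fit over all probes. Single values also have two-sided exact permutation tests, whose smallest P value is 0.00216. Each mouse is 1 replicate.

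The members and the gene lists were chosen with earlier results of these data known. Named are all members and list genes that met the rule or whose groups did not overlap (at most 6 per list). Further named are list genes given for context after their values were seen. The 5 genes outside the members most like Cd74 and like B2m are named too. Each gene is represented by its brightest detected probe. Gene names are those of the files, probe positions are mm9 and promoters are from RefSeq GRCm38.p6. Motif letters and spacings were chosen with the sequences known. An annotation of mm9 was not used here, so exons and untranslated regions are not assigned. The test was checked on simulated data. Alternatives changed the normalization, the correction for background, the offset (16), the filter on dim probes, the use of outlier spots and the prior variance, or used the deposited log2 values, another probe of a gene, a block for slide or replicate number, or 1 array fewer. For list genes they were chosen after seeing the data.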

Additional observations from a re-analysis of the deposited data

How the results depend on the processing

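H2-D1 kept its direction in all 22 alternatives with a test (-0.36 to -0.25, P between 0.00375 and 0.0523 in limma's test) and its call in 17. At their brightest probes H2-Aa, H2-Ab1, H2-DMa, Cd74, H2-K1 and Tap1 stayed below 0 and did not meet the rule in any alternative with a test. With 1 mouse left out they shrank, in that order, to as little as -0.06, -0.14, -0.04, -0.07, -0.09 and -0.09. With each mouse left out, the number of members called lay between 0 and 1, of member probes between 0 and 2, of the other class I chains between 1 and 7 and of all detected probes between 1596 (without control 1) and 2424. H2-Eb1 then lay between -0.21 and 0.0441, B2m between -0.13 and 0.0268 and Ciita between -0.31 and 0.33, so these 3 changed direction. Normexp background correction called 1220 and no detection filter 3224 of the probes tested, against 2128. With slide as a block, 2 member probes (H2-D1 and the second of H2-K1) and 6 other class I chains were called. Within slides, without a test, B2m was 0.0132 in slide 1, and in slide 2, which held 1 nitrate array, H2-Aa was 0.27, H2-Eb1 0.21, H2-DMa 0.27, Cd74 0.20, H2-K1 0.0904, B2m 0.18 and Tap1 0.29. In slide 3 H2-Eb1 was 0.0102 and Ciita 0.39. The causes were not tested.

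Replicate numbers 1 to 5 occur in both groups, and same-numbered mice did not deviate together (correlations from -0.14 to 0.18). Mice numbered 1, 2 and 5 shared a slide with their namesake. Such correlations cannot exclude that the numbers mark pairs, and the main fit used no pairing. With the replicate block, which leaves control 6 without a partner, H2-D1 was -0.34, and 1 member, 2 member probes and 7 other class I chains were called.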
